A study of Mus musculus with 8 samples.

Results

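Among the immune cells of mouse colon tumours, a set of neutrophil wells rich in transcripts of the chemokines Ccl3 and Ccl4 was described gene by gene, against the remaining neutrophil wells of the same tumours and by the genotype of the fibroblasts. Transcripts had been counted by SORT-seq, which places 1 index-sorted cell in each well of a 384-well plate and counts the 3′ ends of its polyadenylated RNA with unique molecular identifiers. The series held 8 plates with 3072 wells, 1 plate per mouse, and 2051 wells had at least 500 transcripts. The members were chosen by measured values. A neutrophil well had at least 5 transcripts and at least 40 per 10000 of S100a8, S100a9, Csf3r, Cxcr2, Il1r2 and G0s2 together, with few transcripts of the genes that mark macrophages, lymphocytes, epithelium and fibroblasts, and a high well additionally had at least 20 transcripts of Ccl3 plus Ccl4 per 10000. There were 75 high wells among 199 neutrophil wells, which left 124 other neutrophil wells.

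All mice carried Zeb1 fl/fl alleles, received a tamoxifen diet and bore grafts of mutant colon tumour organoids in the cecum. The 4 FibΔZeb1 mice carried a fibroblast-directed, tamoxifen-inducible Cre, named Col1a1Cre-ERT2 in the labels and Col1a2-CreERT2 in the methods of the study, so that the transcription factor Zeb1 was deleted in fibroblasts. The 4 FibCtrl mice lacked the Cre and kept Zeb1. Ages are not given beyond age-matched littermates of both sexes. Each mouse and plate was 1 replicate, and wells of a plate were not treated as replicates.

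Ccl3 (MIP-1α) and Ccl4 (MIP-1β) are CC chemokines that draw monocytes, T cells, NK cells and dendritic cells. Both genes are transcribed rapidly in myeloid cells after signals through pattern recognition receptors, IL-1 or TNF that activate NF-κB. Neutrophils that have entered inflamed tissue or tumours are known to make chemokines and members of the IL-1 family, whereas neutrophils that have just left the bone marrow carry granule and migration transcripts. On the GRCm38 build, Ccl3 lies at chr11:83647844-83649355 on the minus strand and Ccl4 at chr11:83662584-83664683 on the plus strand (GENCODE M21), so the genes that defined the set are neighbours.

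Plates held between 981881 (FibCtrl 2) and 5905190 (FibCtrl 1) transcripts outside mitochondrial and spike-in rows, and between 115 and 327 wells with at least 500 transcripts. FibCtrl 1 stood apart: none of its 327 wells was a neutrophil well, which allows a share of up to 0.917% (counting error only). This plate did hold 44 wells with the lymphocyte genes Cd79a or Cd3e and 4 wells with the macrophage genes C1qa, C1qb or C1qc. The sort fixed how many immune cells each plate received, and the records of which gate a cell came from were left aside. Why FibCtrl 1 had no neutrophil well was not tested. The same 384 well barcodes serve every plate by design, so sharing of barcodes between plates carries no information. Zeb1 was counted at 0 to 0.928 transcripts per 10000 in collagen-positive wells of FibCtrl plates and at 0.220 to 0.557 in those of FibΔZeb1 plates. Since 3′ ends were counted and the deleted part of Zeb1 is not given in the sources used here, these levels do not check the deletion.

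High wells were present on every plate with neutrophil wells. There were 16 of 28 neutrophil wells on FibCtrl 2, 4 of 30 on FibCtrl 3 and 7 of 21 on FibCtrl 4. There were 6 of 13 on FibΔZeb1 1, 10 of 19 on FibΔZeb1 2, 21 of 47 on FibΔZeb1 3 and 11 of 41 on FibΔZeb1 4. High wells therefore came from 7 mice, and FibΔZeb1 3 alone supplied more of them than any other mouse. Over the 75 high wells, Ccl3 plus Ccl4 ranged from 20.1 to 1586 transcripts per 10000 with a median of 106, on 2 to 153 counted transcripts per well. Of the 124 other wells, 91 held neither transcript. The set was graded rather than cleanly separated at its lower edge, with 13 high wells between 20 and 40 and 12 other wells between 10 and 20 per 10000. The 3 lowest high wells had 20.1, 20.9 and 22.1 per 10000, and the 3 highest other wells 19.8, 19.7 and 18.8. Both chemokines were counted in 46 high wells, Ccl3 without Ccl4 in 24 and Ccl4 without Ccl3 in 5. These values restate the selection and were not tested.

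**Figure D1:**
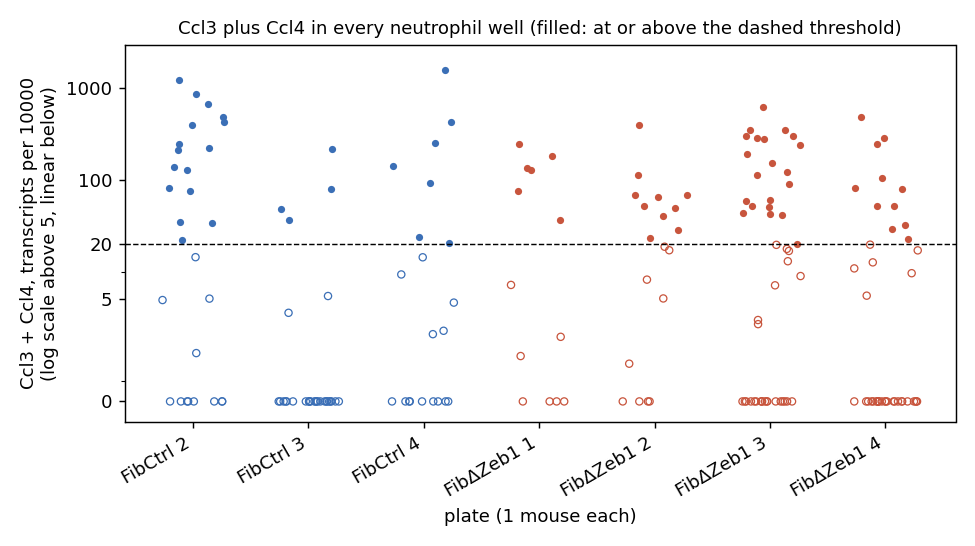
Ccl3 plus Ccl4 transcripts per 10000 (y axis, logarithmic above 5 and linear below) in each of the 199 neutrophil wells, by plate (x axis, FibCtrl in blue and FibΔZeb1 in red). Filled points are the 75 high wells at or above the dashed threshold of 20, which reach 1586, and open points are the 124 other wells, 91 of which lie at 0.

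The selection also fixed a high level in comparison with other cells of the tumours. Per plate with at least 5 such wells, Ccl3 plus Ccl4 summed to 95.4 to 263 per 10000 in high wells (6 plates) and 0.291 to 4.43 in other neutrophil wells (7 plates). In the 92 C1q-positive wells, a macrophage-type profile, the range was 6.50 to 28.7 (5 plates), and 26 of these wells reached the threshold of 20. In the 176 wells with Cd79a or Cd3e, lymphocyte genes, it was 0.235 to 10.4 (6 plates), and 4 reached 20. In the 473 collagen-positive wells it was 0.0599 to 7.33 (8 plates), and 31 reached 20. In the 429 Epcam-positive wells it was 0.135 to 1.91 (8 plates), and 4 reached 20. These classes differed in depth, with a median of 1936 transcripts per high well, 1919 per other neutrophil well and 11534 per C1q-positive well.

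To ask which other genes distinguish the high wells, counts of high wells and of other neutrophil wells were summed per plate and compared within plates. The 6 plates with at least 5 wells in each state entered, with 71 high and 98 other wells, and FibCtrl 3 with its 4 high wells did not. Summed depth was 12424 to 51462 transcripts for high wells and 20309 to 52758 for other wells. With edgeR's quasi-likelihood test, 6 of 342 tested genes were higher in high wells at an adjusted p under 0.05 (1.75%) and 0 were lower (0%), and unadjusted p-values under 0.05 were found for 38 higher and 31 lower genes. By DESeq2 there were 17 higher genes, the same 6 among them, and 7 lower ones. The 6 were Cxcl2, Il1rn, Irg1, Il1a, Csf1 and Ctsb. Cxcl2, Il1rn and Irg1, as well as Cxcl3, had been named as markers of these cells from earlier results on these data. Those called stay in the counts of calls, but their calls are not read as support and only their values are described below. This leaves 3 called genes that the name had not drawn on. All 6 calls were lost when FibΔZeb1 3, the plate with most high wells, was left out, where their log2 fold changes were 1.49 (Ctsb) to 2.36 (Cxcl2) with adjusted p of 0.0877 to 0.0883. They were also lost when the threshold was set at 10 per 10000, where the 6 genes had log2 fold changes of 1.31 (Ctsb) to 2.14 (Cxcl2).

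The chemokine markers were higher in high wells. Cxcl2, a CXC chemokine that attracts neutrophils through Cxcr2, had 218, 268 and 654 transcripts per 10000 (lowest, median and highest of 6 plates) in high wells, against 14.1, 67.4 and 202 in other wells. The plates did not overlap, and the mean was 357 ± 184 against 79.4 ± 63.8 (SD, n = 6). Cxcl3, a close relative of Cxcl2 with the same receptor, had 6.32, 26.5 and 54.2 in high wells and 0, 5.64 and 25.7 in other wells. It was higher in high wells of 5 of 6 plates, and its ranges overlapped.

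Il1rn, which encodes the secreted antagonist of the IL-1 receptor, had 25.2, 38.5 and 63.7 transcripts per 10000 (lowest, median and highest) in high wells and 3.84, 10.6 and 17.6 in other wells, with no overlap between the plates. Irg1, listed as Acod1 in current annotation, encodes the mitochondrial enzyme that makes itaconate in activated myeloid cells. It had 11.5, 26.3 and 41.1 in high wells and 2.097, 5.36 and 11.3 in other wells, and the groups again did not overlap. FibCtrl 3, which was outside the comparison, had 138 transcripts of Cxcl2 per 10000 in its 4 high wells and 48.0 in its 26 other wells. For Il1rn it had 25.5 and 4.80, and for Irg1 6.37 and 5.38, so the direction was shared while the difference in Irg1 was small.

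The genes that the name had not drawn on were Il1a, Csf1 and Ctsb. Il1a encodes IL-1α, an alarmin cytokine that signals through the same receptor that Il1rn blocks. It had 6.45, 16.2 and 21.3 transcripts per 10000 in high wells and 0.427, 4.49 and 7.40 in other wells, and was higher in high wells of 6 of 6 plates, although the lowest high value lay below the highest other value. Its log2 fold change was 1.77 ± 0.32 (SE, edgeR adjusted p = 0.0168). Csf1, the growth factor of monocytes and macrophages, had 1.38, 9.31 and 15.3 in high wells and 0, 2.79 and 5.50 in other wells, again higher on 6 of 6 plates with overlapping ranges. Its log2 fold change was 1.70 ± 0.36 (edgeR adjusted p = 0.0279). Ctsb encodes the lysosomal protease cathepsin B. It had 7.14, 23.8 and 33.9 in high wells against 4.27, 6.23 and 13.8 in other wells, was higher on 6 of 6 plates with overlapping ranges, and had a log2 fold change of 1.43 ± 0.30 (edgeR adjusted p = 0.0279). In FibCtrl 3 the 4 high wells held no Il1a transcript, 3.19 per 10000 of Csf1 and 12.8 of Ctsb, against 1.16, 1.02 and 3.20 in its other wells. Il1a and Csf1 were too low in other wells (lowest 0.427 and 0) to pass the expression filter on those wells alone. They entered the test only with the high wells, where they are high, so their adjusted p is not independent of that filter. Over all alternatives run, Il1a was called in 10 of 16, Csf1 in 7 of 16 and Ctsb in 9 of 17, with positive estimates in each. All 3 lost the call with no gene filter, without the plate term and against other wells lacking Ccl3 and Ccl4, and Il1a and Csf1 also lost it at a threshold of 40. Ctsb lost it when wells were thinned to 500 transcripts, where Il1a and Csf1 were not tested. Il1a kept its call in 5 of 6 fits that left out 1 plate, all but that without FibΔZeb1 3. Csf1 kept it in 2, losing it without FibCtrl 4 (edgeR adjusted p = 0.0631), FibΔZeb1 1 (0.0578), FibΔZeb1 2 (0.0515) or FibΔZeb1 3 (0.0883). Ctsb kept it in 3, losing it without FibCtrl 2 (0.0616), FibCtrl 4 (0.0631) or FibΔZeb1 3 (0.0877).

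**Figure D2:**
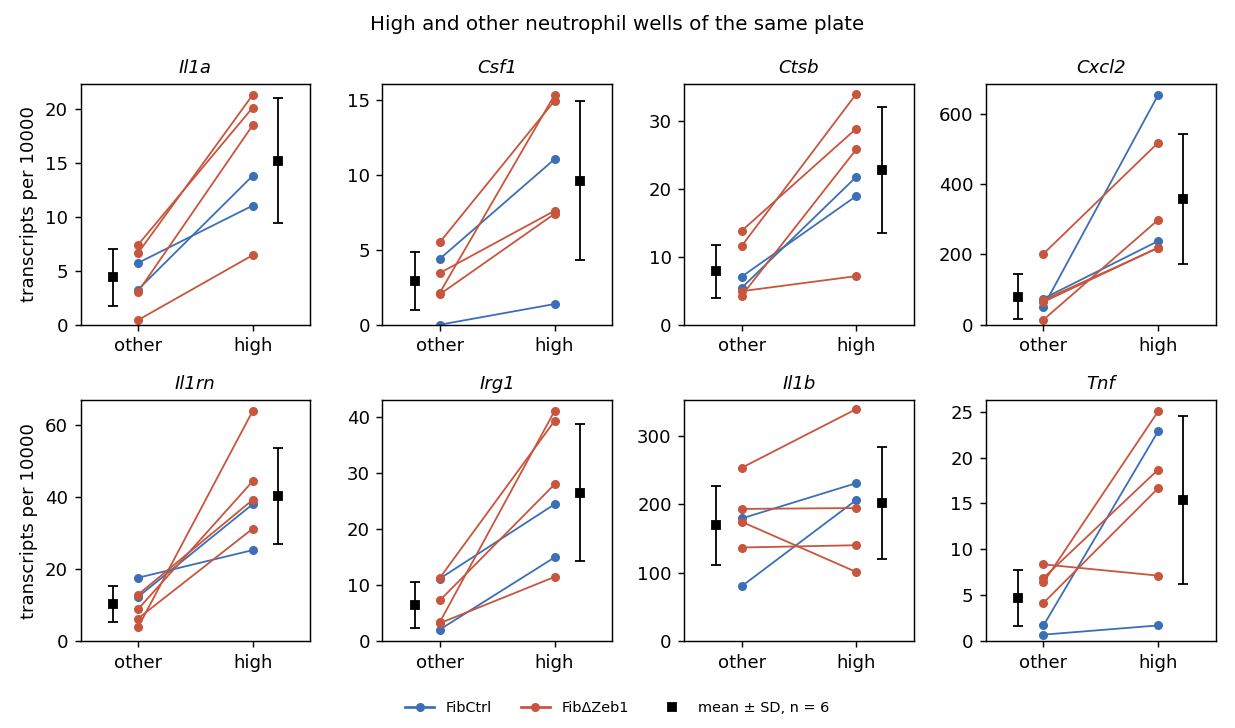
Transcripts per 10000 of 8 genes in other and high neutrophil wells of the same plate (lines join the 2 states of 1 of 6 plates, FibCtrl in blue and FibΔZeb1 in red), with the mean ± SD over plates in black. For Il1a, Csf1, Ctsb, Cxcl2, Il1rn and Irg1 all 6 lines rise from other to high, whereas Il1b and Tnf each fall on 1 plate.

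To show sequence beside the values, the 250 bases before the transcription starts of the chemokine genes, the other markers and the called genes were read from RefSeq (GRCm38.p6). A window was found for 7 of the 9 genes looked for, namely Ccl3, Cxcl2, Cxcl3, Il1rn, Irg1 (as Acod1), Il1a and Csf1, but none for Ccl4 or Ctsb. The consensus for NF-κB binding was searched on both strands. It was present in 3 of the 9 windows of these 7 genes (Il1rn has 3 windows), those of Cxcl2, Cxcl3 and Csf1, in 0 of the 2 windows of Tnf and Il1b, and in 7.25% of all 32851 windows. These few windows are a description, and nothing about a regulator is read from them. The windows with a match are printed to place it, with matching bases in capitals, and that of Ccl3 is shown as the gene that defined the set. Each runs 5′ to 3′ towards the transcription start, at chr5:90903649-90903898 (plus strand), chr5:90785851-90786100 (plus), chr3:107760470-107760719 (minus) and chr11:83649379-83649628 (minus).
Cxcl2: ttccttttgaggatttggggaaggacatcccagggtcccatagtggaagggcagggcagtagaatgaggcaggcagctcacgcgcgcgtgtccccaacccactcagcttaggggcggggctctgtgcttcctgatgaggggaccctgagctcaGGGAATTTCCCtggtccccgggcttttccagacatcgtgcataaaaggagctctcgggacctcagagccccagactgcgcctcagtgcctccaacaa
Cxcl3: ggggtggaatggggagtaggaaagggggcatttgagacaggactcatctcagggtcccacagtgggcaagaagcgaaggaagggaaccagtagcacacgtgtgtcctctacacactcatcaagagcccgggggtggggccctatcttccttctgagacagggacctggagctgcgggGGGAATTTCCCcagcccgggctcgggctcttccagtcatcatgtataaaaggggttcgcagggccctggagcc
Csf1: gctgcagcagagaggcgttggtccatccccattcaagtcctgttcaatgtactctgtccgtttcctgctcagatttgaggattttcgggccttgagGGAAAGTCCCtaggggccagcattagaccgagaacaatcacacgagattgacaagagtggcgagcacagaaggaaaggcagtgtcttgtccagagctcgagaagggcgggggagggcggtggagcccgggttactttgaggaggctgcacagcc
Ccl3: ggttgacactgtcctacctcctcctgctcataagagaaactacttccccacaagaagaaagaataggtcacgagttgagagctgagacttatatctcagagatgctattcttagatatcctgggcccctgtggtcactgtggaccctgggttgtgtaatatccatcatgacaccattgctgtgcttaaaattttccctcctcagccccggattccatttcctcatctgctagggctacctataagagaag

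The match began 97 bases before the start in Cxcl2, 73 in Cxcl3 and 154 in Csf1. The capitals in Cxcl2 and Cxcl3 are the same letters and hold 2 overlapping matches, 1 on each strand. A match is a description of the letters, and its absence from these windows says nothing about binding elsewhere.

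Other members of the ligand lists were mostly too sparse to test. Of 14 CC chemokines, 1 passed the expression filter apart from the selecting genes, Ccl6, a chemokine of myeloid cells, with a log2 fold change of 0.91 ± 0.40 that did not pass (edgeR adjusted p = 0.23). Of 14 genes of the IL-1 family and its receptors and processing enzymes, 4 were tested, with Il1rn among them as a marker in the name. Of the 3 others 1 was called higher (Il1a), and their median log2 fold change was 1.22, against −0.05 over all 342 genes. Nlrp3, the sensor of the inflammasome that activates IL-1β, had a log2 fold change of 1.22 ± 0.32 (edgeR adjusted p = 0.0728) and was higher on 5 of 6 plates. Il1b itself was abundant in both states, with 101, 200 and 339 transcripts per 10000 in high wells and 80.3, 177 and 253 in other wells. Its log2 fold change was 0.13 ± 0.36 (edgeR adjusted p = 0.883), so no difference in Il1b was detected. The estimate for Il1b turned to −0.05 without FibCtrl 2. Whether the differences of Il1a and Il1b differ from each other was not tested.

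Of 19 other cytokines and growth factors, 5 were tested, 1 was called higher (Csf1), and all 5 estimates were positive with a median of 0.64. Tnf, which encodes the inflammatory cytokine TNF, had 1.72, 17.7 and 25.03 transcripts per 10000 in high wells and 0.721, 5.29 and 8.37 in other wells, with a log2 fold change of 1.66 ± 0.45 (edgeR adjusted p = 0.0728). It passed with DESeq2 (adjusted p = 0.0214). Osm (0.51 ± 0.38), Thbs1 (0.64 ± 0.59) and Vegfa (0.15 ± 0.45) had smaller estimates that did not pass (edgeR adjusted p of 0.484, 0.603 and 0.900). Of 3 tested chemokine receptors 0 were called by edgeR or DESeq2, with 0 at an unadjusted p under 0.05 by edgeR, and Ccr1, a receptor for Ccl3 named after its value was seen, had a log2 fold change of −0.22 ± 0.27.

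Intracellular genes of related function were then read from the fixed lists. As few members of these lists were called, the members named here and in the next paragraph that were not called were chosen after their values were seen. Of 32 NF-κB targets and feedback genes, 10 were tested and 0 called by edgeR (3 by DESeq2, namely Ier3, Nfkbia and Tnfaip3), though 9 estimates were positive, 5 had an unadjusted p under 0.05, and the median was 0.82. Among them Ier3, an early response gene, had a log2 fold change of 1.14 ± 0.32, the inhibitor gene Nfkbia 0.95 ± 0.30 and the deubiquitinase gene Tnfaip3 0.94 ± 0.27, with edgeR adjusted p of 0.0728, 0.108 and 0.0829. Of 8 tested genes on the tumour-associated neutrophil list, 1 was called (Ctsb), and 6 estimates were positive with a median of 0.68. The ferritin heavy chain gene Fth1 was higher on 6 of 6 plates (1.08 ± 0.36, adjusted p = 0.131), with 79.7 to 253 per 10000 in high wells and 51.0 to 98.5 in other wells. The 17 tested immediate-early genes had a median of 0.12 and the 14 tested hypoxia and glycolysis genes one of −0.04, with 0 called by edgeR in either list and 2 members of each higher at an unadjusted p under 0.05. Among all 342 tested genes 38 were higher at that level, a share near those of these 2 lists.

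Members of the granule and maturation, phagocyte oxidase and interferon-stimulated lists had mostly negative estimates, with 0 called by edgeR and 4, 2 and 1 members lower at an unadjusted p under 0.05. Among all 342 tested genes, 31 were lower at that level and the median estimate was −0.05. Of 6 tested granule and maturation genes 5 had negative estimates, with a median of −0.84. The granule gene Lcn2 went the other way, at 1.35 ± 0.71 (edgeR adjusted p = 0.298). Retnlg, a secreted resistin-like protein of young neutrophils, had 0, 0.977 and 84.3 transcripts per 10000 in high wells and 1.33, 27.998 and 80.4 in other wells. The highest of these values was in the high wells of FibCtrl 2, and its log2 fold change was −2.37 ± 0.96 (edgeR adjusted p = 0.197). All 5 tested members of the phagocyte oxidase complex and its regulators had negative estimates, with a median of −0.64, and the lowest was Ncf4 at −1.001 ± 0.38 (adjusted p = 0.197). Lrg1, a glycoprotein stored in neutrophil granules, was lower in high wells of 5 of 6 plates (−1.92 ± 0.53, adjusted p = 0.0728). It comes from the list of neutrophil identity genes and not from these lists. With DESeq2, Lrg1 (adjusted p = 0.00985) and Retnlg (0.0207) were among the 7 genes called lower, and without the expression filter Retnlg was called lower by edgeR as well (adjusted p = 0.0199). Of 5 tested interferon-stimulated genes 4 had negative estimates, with a median of −0.24, and Ifitm1 had −1.10 ± 0.31 (adjusted p = 0.0728).

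**Figure D3:**
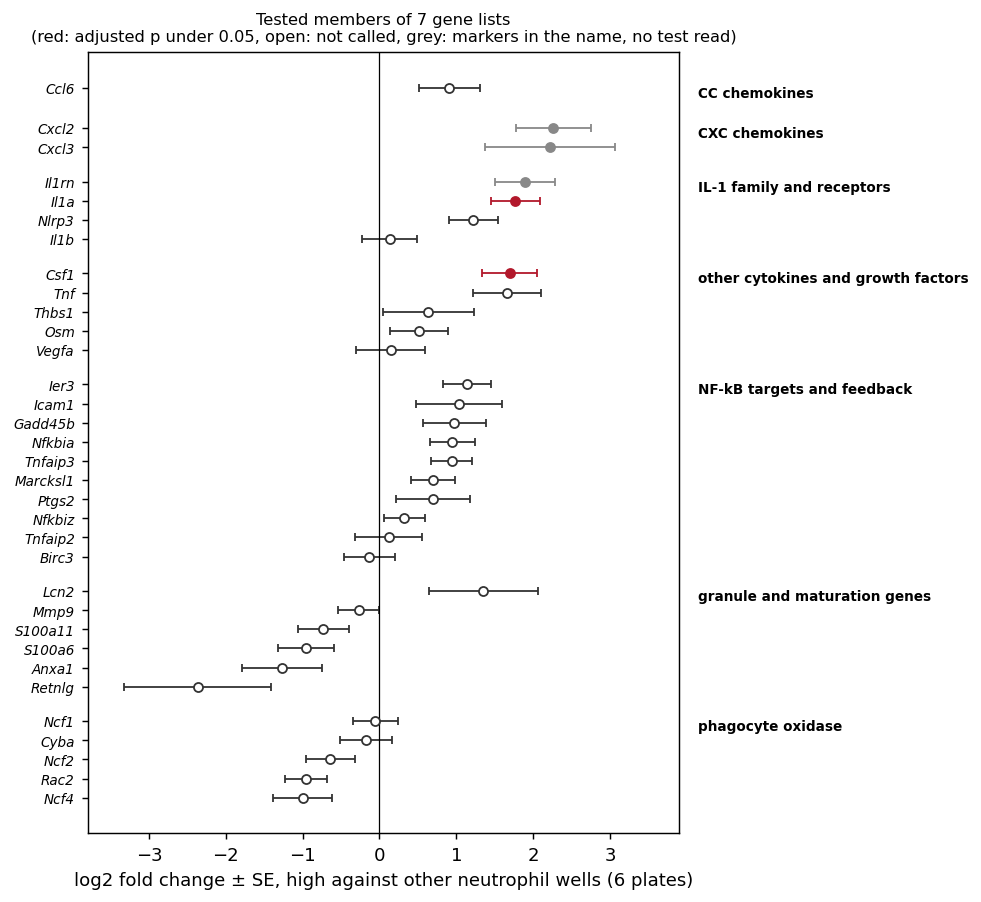
Log2 fold change ± SE (x axis) of the tested members of 7 gene lists in high against other neutrophil wells of 6 plates. Red marks Il1a and Csf1, called at an adjusted p under 0.05, open points were not called and grey points are genes in the name of the set. Chemokine, IL-1, cytokine and NF-κB members lie mostly right of 0, and granule and oxidase members mostly left.

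A gene too sparse for the expression filter was chosen after its values were seen. Cd274, which encodes the checkpoint ligand PD-L1, had 2.41 to 11.3 transcripts per 10000 in high wells and 0.361 to 2.43 in other wells, on 109 and 36 transcripts over 7 plates, and was higher on 6 of 6 plates. Without the filter it was among 5 genes called higher of 13039 (log2 fold change 2.31 ± 0.55, edgeR adjusted p = 0.0294). That fit also called 12 genes lower, had a median log2 fold change of −0.45 over its genes, and did not call Il1a, Csf1 or Ctsb. Since Cd274 was chosen after its values were seen, its adjusted p is a description and not independent support.

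The level of these genes was also followed along the level of Ccl3 plus Ccl4, with all wells of a class summed. Il1rn had 7.95 per 10000 in the 91 wells without Ccl3 or Ccl4, 13.9 in the 33 wells above 0 and under 20, 25.02 from 20 to under 40, 23.4 from 40 to under 100 and 53.8 at 100 or more. Il1a passed through 3.55, 4.54, 9.74, 11.7 and 21.1 in the same classes, and Csf1 through 2.49, 3.38, 4.52, 7.05 and 9.88. All 3 were highest in the class of 100 or more, and Il1a and Csf1 were higher in each class than in the one before. Cxcl2 had 66.6, 70.3, 414, 249 and 402, a step at the threshold without a further rise. Il1b had 173, 161, 163, 214 and 179, with no such step. The classes mix wells of 7 plates in unequal shares and were not tested.

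**Figure D4:**
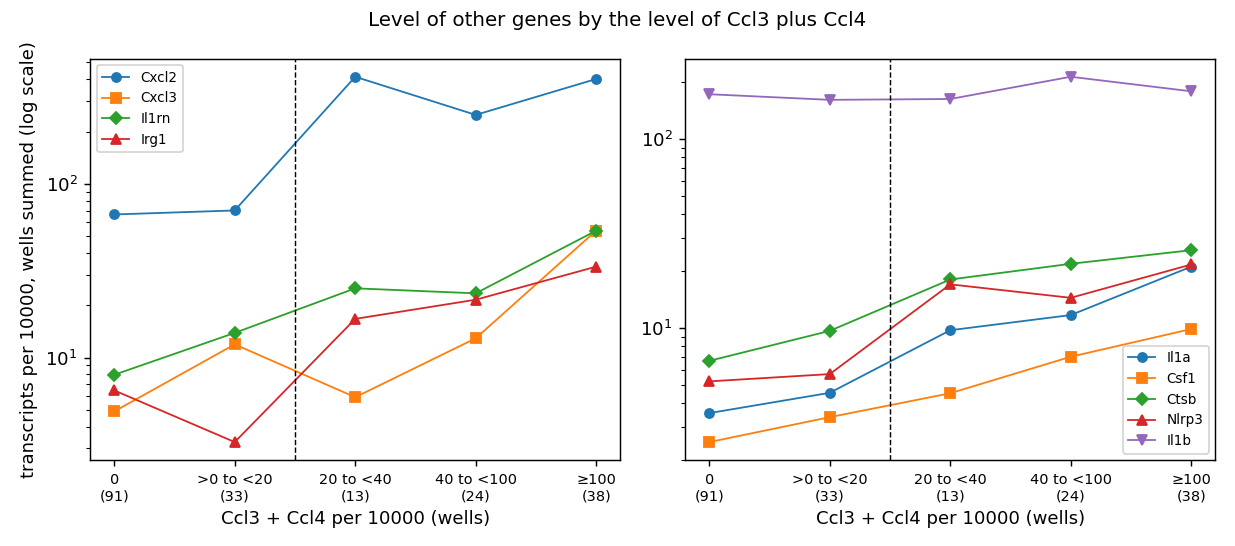
Transcripts per 10000 (y axis, log scale) of 9 genes in neutrophil wells summed by their level of Ccl3 plus Ccl4 (x axis, number of wells in brackets), with the threshold dashed. Il1rn, Il1a and Csf1 are highest in the class of 100 or more, and Il1b stays between 161 and 214. Heights are not comparable between genes.

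Within the high wells, expression of these genes was mixed rather than uniform. To compare shares of wells at equal depth, each well was thinned to 500 transcripts, and wells with Cd79a or Cd3e served as the background for stray transcripts. Cxcl2 was counted in 94.7% of thinned high wells, 60.5% of other wells and 7.95% of lymphocyte wells (unthinned 97.3% of high wells and 73.4% of other wells). Il1rn was counted in 65.3%, 38.7% and 1.14%, Irg1 in 50.7%, 15.3% and 0%, and Ctsb in 53.3%, 32.3% and 15.3%. Il1a was rarely counted at this depth, in 17.3%, 13.7% and 0.5682% (unthinned 41.3% of high wells and 24.2% of other wells). Of the 6 genes called higher, at least 4 were counted together in 27 of 75 thinned high wells and in 9 of 124 thinned other wells. Since these genes were called or named on the same wells, a higher count in high wells follows from their choice. The wells were pooled over plates, and the counts were not tested.

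The label of neutrophil was checked with identity genes outside the selection. Leaving out Irg1, 18 such genes summed to 100.5 to 358 transcripts per 10000 in high wells (6 plates) and 96.7 to 305 in other neutrophil wells (7 plates). The same genes summed to 22.4 to 45.8 in C1q-positive wells (5 plates) and at most 32.8 in the lymphocyte, Epcam-positive and collagen-positive wells. Between high and other wells the members were mixed. Of 16 tested, Irg1 included, 8 estimates were positive. At an unadjusted p under 0.05 (edgeR), 3 were higher (Irg1, Clec4d and Clec4e) and 5 lower (Lrg1, Pglyrp1, Trem1, Retnlg and Msrb1). Over all 342 tested genes 38 were higher and 31 lower at that level. Among the 6 gate genes, which the rule used, levels were higher in high wells of 4 of 6 plates for G0s2, 3 for S100a9 and Il1r2, 1 for S100a8 and Csf3r, and 0 for Cxcr2. Cxcr2, singled out after its values were seen, had a mean of 5.13 ± 3.22 in high wells against 14.2 ± 6.37 in other wells (SD, n = 6). Cxcr2 encodes the chemokine receptor that binds the products of Cxcl2 and Cxcl3. These values of gate genes are a description and were not tested.

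Markers of other cells were counted in both states. The summed level of 14 monocyte or macrophage markers was 1.38 to 46.0 per 10000 in high wells and 7.88 to 29.4 in other wells, and it was higher in high wells of 2 of 6 plates, with Ms4a7 at 0 in high wells. In C1q-positive wells the same markers summed to 249 to 439. The 11 dendritic cell markers summed to 2.41 to 54.0 and 3.61 to 47.0, higher on 3 of 6 plates, with Flt3, Clec9a, Cd209a, Zbtb46 and Ccr7 at 0 in high wells, and they summed to 111 to 398 in C1q-positive wells. The 14 mast cell, basophil and eosinophil markers summed to at most 2.68 per 10000 in high wells, the 11 T or NK cell markers to at most 0.788, and the 5 B cell markers to at most 4.46. Epithelial markers reached 12.4 in high wells and 7.93 in other wells, and fibroblast or endothelial markers 32.2 and 20.1. None of the other-cell markers tested (Fn1, Lyz1, H2-Aa and Sparc) was called, and the part of such transcripts in the differences was not tested.

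No difference in well quality was detected between the states. The mitochondrial share, as a mean of plate medians, was 7.44% in high wells and 8.38% in other wells, a difference of −0.943 ± 1.29 points (SD, n = 6 plates, exact sign-flip permutation test, two-sided p = 0.1875, adjusted p = 0.281). The spike-in share was 29.5% and 28.1% (difference 1.34 ± 6.27 points, exact permutation p = 0.63, adjusted p = 0.63). Genes counted after thinning to 500 transcripts were 320 and 337 (difference −17.1 ± 21.4, exact permutation p = 0.1875, adjusted p = 0.281). High wells were higher on 2 of 6 plates for each measure. The smallest p this design allows is 0.03125. Median depth per well was 1368 to 2267 transcripts for high wells and 1184 to 3222 for other wells, and high wells were deeper on 3 of 6 plates.

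To ask whether the genotype of the fibroblasts went with these cells, the share of high wells among neutrophil wells was compared between mice. It was 57.1%, 13.3% and 33.3% on FibCtrl 2, 3 and 4, and 46.2%, 52.6%, 44.7% and 26.8% on FibΔZeb1 1 to 4. Exact 95% binomial intervals were wide, from 37.2% to 75.5% for FibCtrl 2 and from 3.76% to 30.7% for FibCtrl 3. The FibCtrl mice held both the highest and the lowest share and enclosed all FibΔZeb1 mice. Mean shares were 34.6% ± 21.9 (SD, n = 3) and 42.6% ± 11.1 (SD, n = 4), a difference of 7.97 points (exact permutation test, two-sided p = 0.514, adjusted over both genotype values p = 0.80). The smallest p that 3 against 4 mice allow is 0.0571, so this test could not have passed 0.05. Leaving out FibCtrl 3 turned the difference to −2.66 points. Within flow cell 1 of the sequencing it was −7.75 points (1 against 2 mice) and within flow cell 2 it was 12.4 points (2 against 2). Flow cells were inferred from run identifiers in the names of the deposited data, as the sample labels do not give them.

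The level of Ccl3 plus Ccl4 over all neutrophil wells, which needs no threshold, gave the same picture. As log2(CPM + 1) it was 13.46, 10.47 and 12.38 on FibCtrl 2, 3 and 4, and 12.23, 12.35, 12.98 and 11.74 on FibΔZeb1 1 to 4. The mean was 12.10 ± 1.52 (SD, n = 3) against 12.33 ± 0.51 (SD, n = 4), a difference of 0.23 (exact permutation p = 0.80, adjusted p = 0.80). Without FibCtrl 3 it was −0.59, and within flow cells it was −1.17 and 0.94. The FibCtrl mice again held both the highest and the lowest value and enclosed all FibΔZeb1 mice. Neither the share nor the level could give a permutation p under 0.0571, which lies above 0.05. These tests therefore could not call a genotype difference, and neither a difference nor its absence is concluded from them.

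Within the high wells, 405 genes were compared between 2 FibCtrl mice (replicates 2 and 4) and 4 FibΔZeb1 mice. With edgeR 0 genes were higher (0%) and 1 was lower in FibΔZeb1 (0.247%), with 7 higher and 3 lower at an unadjusted p under 0.05. DESeq2 also called 1. The gene was BC018473, an antisense transcript at chr11:116752167-116759373 (plus strand, GENCODE M21). It had 25.9 and 26.8 transcripts per 10000 in high wells of FibCtrl 2 and 4, and 0, 0, 0 and 1.15 in those of FibΔZeb1 1 to 4, so the groups did not overlap. FibCtrl 3, outside the fit, had 21.3 in its high wells. It was counted in 18 of 27 high wells of FibCtrl mice and 1 of 48 of FibΔZeb1 mice. Over the fitted plates this was 109 transcripts against 2, a ratio of 135 with an exact 95% interval of 36.6 to 1133 that covers counting error only (edgeR adjusted p = 0.00785). The gene passed the expression filter through the FibCtrl plates, where it is high, so the test was made on a gene that had to differ. The call was lost without FibΔZeb1 1 (edgeR adjusted p = 0.0536), without FibΔZeb1 3 (0.0836) and with replicate number as a block (0.418).

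BC018473 also differed within the FibCtrl neutrophils. Other neutrophil wells had 0, 5.53 and 10.9 per 10000 on FibCtrl 2, 3 and 4, each below the high wells of the same plate, and at most 0.379 on FibΔZeb1 plates. Outside neutrophils it was at most 0.415 in C1q-positive wells, 0.476 in Epcam-positive wells and 0.821 in wells with Cd79a or Cd3e, but reached 2.00 in collagen-positive wells of FibCtrl 4. Whether the counting used the strand is not stated, so reads from an overlapping gene on the other strand cannot be told apart from it.

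Of the chemokine, IL-1 and cytokine lists, 16 members were tested between genotypes and 0 were called, with log2 differences from −2.64 to 6.42 and 1 at an unadjusted p under 0.05. That gene was Il23a, which encodes a subunit of the cytokine IL-23. It had 0 in high wells of both fitted FibCtrl plates and of FibCtrl 3, and 4.02, 6.25, 2.72 and 5.17 transcripts per 10000 in high wells of FibΔZeb1 1 to 4, on 42 transcripts in 9 wells. The groups did not overlap, but the gene passed the filter only through the FibΔZeb1 plates and so had to differ, the adjusted p was 0.992 with edgeR, and 10 of 405 genes reached an unadjusted p under 0.05. Cxcl2 had 654 and 238 in FibCtrl 2 and 4 and 298, 518, 219 and 218 in FibΔZeb1 1 to 4, so the groups overlapped. Markers of other cells had estimates in the same direction as Il23a that were not called, with log2 differences of 3.27 ± 1.16 for H2-Aa (unadjusted p = 0.0184), 2.11 ± 1.20 for Cd74 and 1.90 ± 1.49 for Apoe (edgeR adjusted p = 0.992 for each). Their part in the genotype values was not tested. Il1a had 13.8 and 11.04 in the control mice and 6.45, 20.1, 18.5 and 21.3 in FibΔZeb1 mice, which also overlapped.

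**Figure D5:**
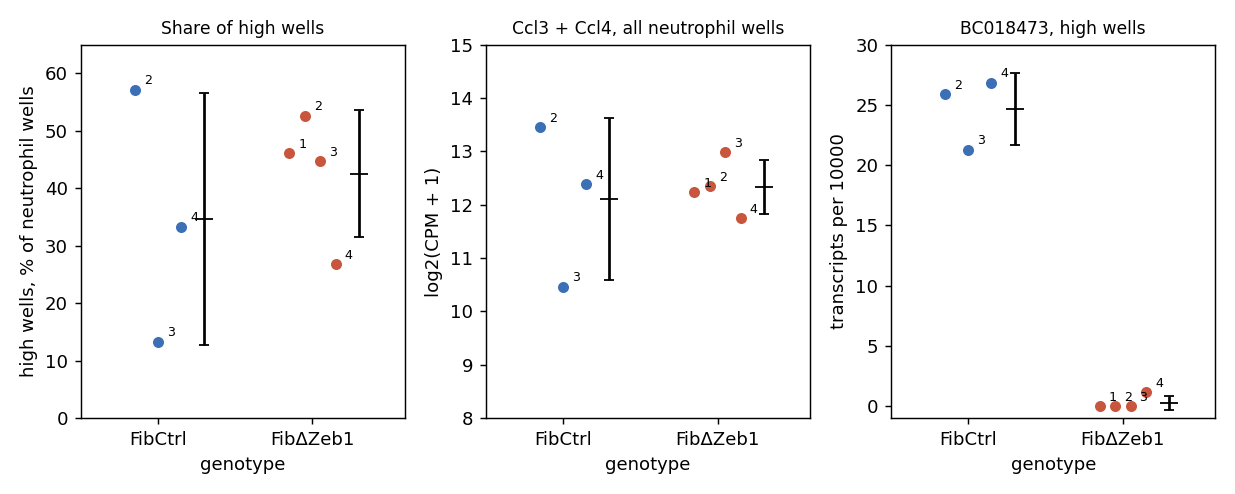
Share of high wells among neutrophil wells (%), log2(CPM + 1) of Ccl3 plus Ccl4 in all neutrophil wells, and BC018473 in high wells (transcripts per 10000) per mouse, by genotype (points, numbered by replicate, with the mean ± SD beside them). The FibCtrl mice span the FibΔZeb1 mice in the first 2 panels. In the third, FibCtrl mice lie between 21.3 and 26.8 and FibΔZeb1 mice between 0 and 1.15.

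The difference between high and other wells was also compared between genotypes, as a state by genotype term over the same 6 plates. With edgeR 0 of 342 genes were called in either direction (0%), with 11 at an unadjusted p under 0.05, and DESeq2 called 0 as well. No gene's difference between high and other neutrophils was shown to depend on genotype.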

How the data were processed

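The deposited tables hold estimated counts: the authors aligned CEL-Seq2 reads with BWA to GRCm38 (per the labels and methods), counted unique molecular identifiers per gene and well and corrected them for identifier collisions, so values need not be whole. Cell Ranger 2.1.1 is also named in the submitters' processing notes. The members and gene lists used here were chosen with earlier results of these data known. Counts were summed per plate and well class, rounded, and tested with edgeR 4.0.16 (glmQLFit, Benjamini-Hochberg adjustment, plate as a term for high against other wells, filterByExpr). DESeq2 1.42.0 in R 4.3.3 was the alternative. Plates needed at least 5 wells per state. Per-mouse values used exact two-sided permutation tests (scipy 1.17.1). Genes were named when called (up to 12 per direction, 5 by genotype, 4 per fixed list), when markers of the set, or when tested members of the chemokine, IL-1 and cytokine lists; others are said to be chosen after their values were seen. In simulated data edgeR recovered 98.0% of 49 genes changed by a log2 of 2 for high against other wells, with 11 false calls among 398 genes, and 26.7% of 60 by genotype, with 2 false calls among 472. The simulated counts had a common dispersion and no differences between plates, and only genes passing the filter were scored. These shares therefore do not measure power in the real data. No doublet caller was run, since 1 cell was sorted per well. Well gates were not used here. The p-values by genotype measure the spread between mice, and those for high against other wells the spread of the differences within plates. Some items are not reported here.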

Additional observations from a re-analysis of the deposited data

Results flagged for a closer look

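In 36 groups of plates tested for a plate far from the others, 7 values stood apart, and chance flags about 1 in 20 such groups. The cause was not tested for any of them. The difference between high and other wells in Cxcl2 was 602 transcripts per 10000 on FibCtrl 2, against 316 on the next plate. The same difference in Vegfa, which encodes the angiogenic factor VEGF-A, was 23.1 on FibΔZeb1 4, against 1.15 on the next plate. In high wells of FibΔZeb1 mice, Vegfa was at 28.8 on FibΔZeb1 4 and at 7.19 on the next plate. FibΔZeb1 2 stood apart in high wells for 3 genes. These were Il1f9, which encodes an IL-36 cytokine, at 21.0 (next 3.69), Nlrp3 at 29.95 (next 9.52) and the cytokine gene Osm at 29.96 (next 4.02). BC018473 was at 1.15 in high wells of FibΔZeb1 4 and at 0 on the other FibΔZeb1 plates.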

How the results depend on the processing

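Genes higher in high wells numbered 6, and 17 with DESeq2, 13 with at least 3 wells per state, 3 at a threshold of 40 per 10000, 1 with no replicate block (plate not in the model), and 0 at a threshold of 10 or, in an alternative chosen after seeing the data, against other wells without Ccl3 or Ccl4, where 4 plates and 429 genes remained. After thinning to 500 transcripts 9 of 50 tested genes were higher, with 3 of the 6 among them. Leaving out 1 plate gave 0 to 6, with 0 without FibΔZeb1 3. Genes lower numbered 0, and 7 with DESeq2, 12 with no gene filter, 4 after thinning, 6 with at least 3 wells, 1 against wells without Ccl3 or Ccl4, and 0 to 2 without 1 plate. By genotype, 1 gene was lower, 3 with at least 10 high wells per plate (4 plates, of which 1 FibCtrl mouse, assumed to vary like the others), 0 with a replicate block and 0 to 3 without 1 plate. Same-numbered plates correlated at 0.272, -0.280 and -0.141. These few values cannot show whether the numbers pair the mice. Plates of equal number did share an inferred flow cell. With the replicate block BC018473 had a log2 difference of -5.68 (edgeR adjusted p = 0.418), the share differed by 6.78 points and the level by 0.26.

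The share difference ranged from -2.66 to 19.2 points without 1 mouse and was -7.75 within flow cell 1. The level difference ranged from -0.59 to 0.90, was -0.0563 after thinning and -1.17 within flow cell 1. The mitochondrial difference was 0.225 points at 1000 transcripts per well, and the spike-in difference ranged from -0.348 to 2.51 without 1 plate (-0.143 without FibCtrl 4). Il1b reversed to -0.0335 with no filter, -0.16 after thinning and -0.0235 against wells without Ccl3 or Ccl4, and Vegfa to -0.10 with no filter. Without 1 plate Il1b ranged from -0.0522 (without FibCtrl 2) to 0.29 and Vegfa from -0.41 (without FibΔZeb1 4) to 0.41. Of the remaining values of named genes under alternatives, 186 kept direction and side of the threshold, 43 lost the call and 9 gained it. The cause was not tested. Summed depth of 12424 to 51462 transcripts per plate limited testing to 342 genes.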
